A study of Homo sapiens with 2 samples.

Results

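Ribosomal RNA entries made up 379 of the 5475 features counted in small RNA libraries of A549 cells, a human lung adenocarcinoma line. They were chosen as the features that the table itself classes as rRNA, which is 1 of its 14 classes. The cells were grown in DMEM with 10% FCS and kept for 24 h at 20% oxygen (normoxia) or at 1.2% oxygen (hypoxia), with 1 library for each condition. Total RNA was ligated, reverse transcribed and amplified with a small RNA kit, and the amplified libraries were cut to a narrow size window, so the counts stand for short fragments of the annotated RNAs. With single libraries no difference could be checked in replicates, and no test or p-value can be given.

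Ribosomes hold their RNA in a small and a large subunit. In human cells, 5S rRNA is transcribed by RNA polymerase III from a tandem array of short genes, with promoter elements inside the transcribed part. The 5.8S rRNA is cut out of the long precursor that RNA polymerase I transcribes, and both RNAs belong to the large subunit. The 5S gene has left many partial and mutated copies across the genome, which annotations list as pseudogenes. Fragments of mature rRNA are a usual part of small RNA libraries.

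The table names its rRNA entries only by Ensembl transcript. None has 5S or 5.8S written in it (0 of 379), so names were taken from the GENCODE annotation, version 29, which held 369 of the 379 transcripts. By these names, 365 entries were 5S, 4 were 5.8S and 10 had no name. GENCODE types 342 of the named entries as rRNA pseudogenes and 27 as rRNA. Among the 5S entries, 17 were the genes RNA5S1 to RNA5S17 of the tandem array on chromosome 1, and 348 lay elsewhere, 338 typed as pseudogenes and 10 as rRNA, and are all called 5S pseudogenes below for short. All 4 entries of 5.8S carry pseudogene names. No named entry was a gene for 18S, 28S or the 5.8S of the precursor, so these were not analysed here. Coordinates are those of the table (hg19, per the processing notes of the submitters). Strand and surrounding gene are those of GENCODE.

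The 5S copies with the largest ratio in each direction, among those with at least 100 counts over both libraries, are shown 5′ to 3′ as the table gives them. Capitals mark bases that differ from RNA5S1 in an end-to-end alignment, inserted bases included, while missing bases leave no mark.

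RNA5SP477: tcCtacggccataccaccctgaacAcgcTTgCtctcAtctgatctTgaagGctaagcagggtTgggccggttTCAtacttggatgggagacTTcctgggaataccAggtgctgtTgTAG
RNA5SP365: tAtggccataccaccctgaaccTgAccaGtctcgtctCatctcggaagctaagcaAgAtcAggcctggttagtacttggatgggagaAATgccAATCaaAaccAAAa

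RNA5S1 (chr1:228746015-228746133, minus strand) stands for the 16 array genes that share its 119 bases. RNA5S9 (chr1:228763895-228764013, minus strand) was the 1 array gene that differed, by 1 substitution. RNA5SP202 (chr6:4428197-4428315, plus strand) differed from RNA5S1 by 1 substitution alone and lies in an intron of the long non-coding RNA gene AL162718.1, on the opposite strand. ENST00000364816 (chrX:68892323-68892441), which has no GENCODE name, differed by 5 substitutions. RNA5SP74 (chr1:204531541-204531649, minus strand) lies between genes and carried 3 substitutions and 10 missing bases. RNA5SP452 (chr18:21750469-21750587, minus strand), in an intron of OSBPL1A on the same strand, had 12 substitutions. RNA5SP477 (chr20:21119597-21119715, minus strand) lies in an intron of KIZ on the opposite strand and RNA5SP365 (chr12:90120713-90120819, plus strand) between genes. They stood 22 and 34 edits from RNA5S1, an edit being 1 base changed, gained or lost.

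The main entries of 5.8S type are compared with RNA5-8SN2, a 5.8S gene taken from the GENCODE transcripts. Capitals again mark differing bases.

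RNA5-8SN2: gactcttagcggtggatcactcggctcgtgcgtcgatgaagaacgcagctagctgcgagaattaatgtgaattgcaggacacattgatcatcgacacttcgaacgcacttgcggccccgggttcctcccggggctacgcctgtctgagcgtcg
RNA5-8SP5: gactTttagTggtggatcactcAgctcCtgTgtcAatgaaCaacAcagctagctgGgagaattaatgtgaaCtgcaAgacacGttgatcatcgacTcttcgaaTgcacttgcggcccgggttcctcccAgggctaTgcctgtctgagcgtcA
RNA5-8SP2: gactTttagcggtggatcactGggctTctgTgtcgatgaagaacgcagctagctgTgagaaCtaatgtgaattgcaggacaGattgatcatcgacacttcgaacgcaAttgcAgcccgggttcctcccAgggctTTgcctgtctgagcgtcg
ENST00000364357: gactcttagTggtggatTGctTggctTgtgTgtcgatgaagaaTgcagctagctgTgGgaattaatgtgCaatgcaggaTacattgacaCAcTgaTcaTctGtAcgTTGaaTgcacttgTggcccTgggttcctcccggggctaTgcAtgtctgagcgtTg

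RNA5-8SP5 (chr2:133010727-133010878, minus strand) lies in an intron of ANKRD30BL on the same strand and stood 18 edits from RNA5-8SN2. RNA5-8SP2 (chr16:33965426-33965577, plus strand) lies between genes and stood 14 edits away. ENST00000364357 (chr9:111754689-111754849) has no GENCODE name. Its 161 bases stood 29 edits from RNA5-8SN2 and 83 from RNA5S1, so it was nearer to 5.8S by sequence.

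The libraries held 6449337 counts in normoxia and 13115226 in hypoxia, a 2.03-fold difference in depth, so values are given as shares or as counts per 1e6 of all counts (CPM). Summed over both libraries, no feature in the table was under 3 counts, and 859 mature miRNAs took 4514818 and 8600160 counts. The label of the line was checked against miRNA markers. All 5 epithelial markers were listed, from miR-21-5p at 505494 CPM in normoxia and 448255 CPM in hypoxia down to miR-200c-3p at 16.9 and 16.2 CPM. Of the blood cell markers, miR-486-5p stood at 16.6 and 17.2 CPM, miR-451a at 12.7 and 14.6 CPM and miR-142-3p had 5 and 6 counts. Of the neuronal markers, miR-9-5p had 232 and 451 counts, above the epithelial miR-141-3p (168 and 219 counts) and miR-200c-3p (109 and 213 counts), and miR-124-3p had 3 and 6 counts. The muscle marker miR-133a had 0 and 18 counts. The hypoxia marker miR-210 had 4307 counts in normoxia against 22849 in hypoxia (log2 ratio 1.38), so it was higher in the library labelled hypoxia.

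The rRNA entries of the table took a larger share of the hypoxia library than of the normoxia library. The class had 243211 counts in normoxia, 3.77% of the library (exact Clopper-Pearson 95% interval 3.76 to 3.79), and 858661 counts in hypoxia, 6.55% (6.53 to 6.56). The share was 1.74-fold higher in hypoxia (exact conditional binomial 95% interval 1.73 to 1.74), a log2 ratio of 0.80. These intervals cover counting error only and take counts as independent. Amplified reads without molecular identifiers are not independent molecules, and the intervals say nothing of the spread between cultures.

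All 3 name groups took a larger share in hypoxia. The 5S entries had 161172 counts in normoxia and 543112 in hypoxia, 2.50% and 4.14% of all counts, with a log2 ratio of 0.73 (0.72 to 0.74). The 5.8S entries had 23057 and 78634 counts, 0.358% and 0.600% of all counts, with a log2 ratio of 0.75 (0.72 to 0.77). The interval of the 5.8S ratio overlapped that of 5S, which was 0.82 (0.81 to 0.82) without RNA5SP202, described below. The 10 entries with no name had 58982 and 236915 counts, 0.915% and 1.81% of all counts. Their log2 ratio of 0.98 (0.97 to 1.00) lay above those of both named groups, with intervals that did not overlap.

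Within the class the make-up differed by a few percentage points between the libraries. The 5S entries took 66.3% of rRNA counts in normoxia and 63.3% in hypoxia, the 5.8S entries 9.48% and 9.16%, and the unnamed entries 24.3% and 27.6%. When the unnamed entries were placed by their nearer sequence, 9 of them joined 5S and 1, ENST00000364357, joined 5.8S. The log2 ratio was then 0.75 (0.74 to 0.76) for the 374 entries nearest to 5S and 1.02 (1.00 to 1.04) for the 5 nearest to 5.8S. The move of this 1 entry thus took the 5.8S ratio from 0.75 to 1.02.

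**Figure D1:**
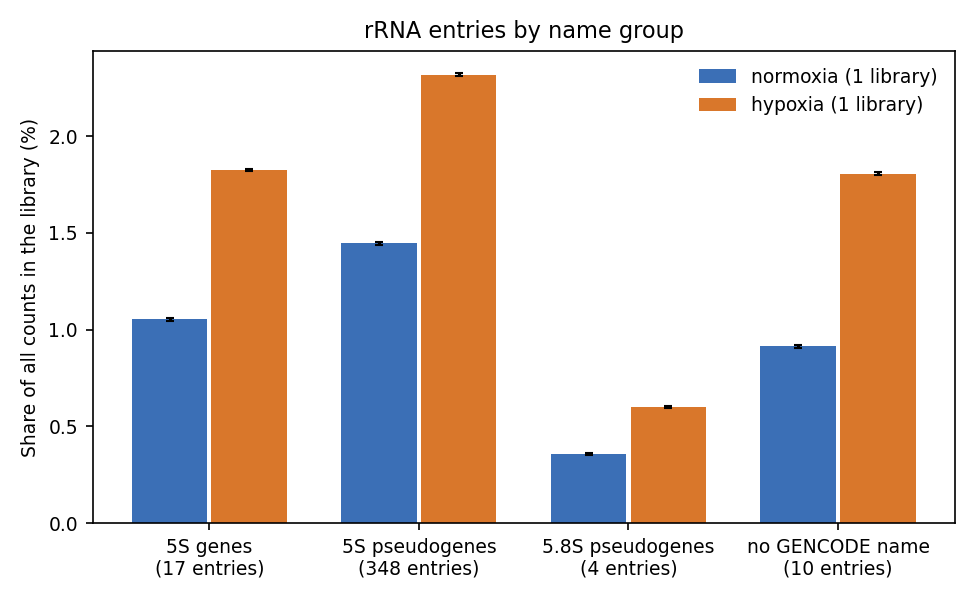
Share of all counts (%, vertical axis) taken by the 17 genes of the 5S array, the 348 5S pseudogenes, the 4 pseudogenes of 5.8S and the 10 entries with no GENCODE name, in the normoxia and the hypoxia library (1 each). Bars are single values and error lines are exact 95% intervals for counting error only. Every group stands higher in hypoxia, and the pseudogenes of 5S take the largest share in both libraries, 1.45% and 2.32%.

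Counts within the class were concentrated in few entries. The most abundant entry took 17.8% of rRNA counts in normoxia and 18.2% in hypoxia, the top 5 took 41.9% and 41.2%, and the top 10 took 50.9% and 51.6%. At the other end, 91 entries had fewer than 10 counts over both libraries and the median entry had 56. In normoxia 24 entries were at 0 and in hypoxia, the 2.03-fold deeper library, 1 was. The same share over all features was not taken, so these numbers show nothing particular to rRNA. A count of at least 100 over both libraries was reached by 154 entries and of at least 1000 by 88.

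The most abundant entry was ENST00000364816, with 43242 counts in normoxia and 156394 in hypoxia. Its log2 ratio of 0.83 (0.82 to 0.85) was close to that of the class, and the class without it still had a log2 ratio of 0.79. ENST00000364357, the 1 unnamed entry nearer to 5.8S than to 5S, had 14317 counts in normoxia and 75386 in hypoxia (log2 ratio 1.37, interval 1.35 to 1.40). It took 5.89% of rRNA counts in normoxia and 8.78% in hypoxia, the second place in the hypoxia library.

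RNA5SP202, the copy that differs from the array genes by 1 substitution, had nearly the same CPM in both libraries. It had 22390 counts in normoxia and 46148 in hypoxia, or 3472 and 3519 CPM, with a log2 ratio of 0.02 (-0.0037 to 0.042). It took 9.21% of rRNA counts in normoxia and 5.37% in hypoxia. The sign of this ratio depended on the scale (0.06 to -0.10 under other scales), while it lay 0.78 to 0.79 below the ratios of RNA5S15, RNA5S16 and RNA5S17, from whose sequence it differs by 1 base. A ratio below 0 was found for 2 of the 88 entries with at least 1000 counts, RNA5SP252 with 4201 and 7688 counts (log2 ratio -0.15, interval -0.21 to -0.10) and RNA5SP218 with 390 and 761 counts (-0.06, -0.24 to 0.12).

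The 5.8S pseudogenes fell into a more and a less abundant pair. RNA5-8SP5 had 13024 counts in normoxia and 44045 in hypoxia (log2 ratio 0.73, interval 0.71 to 0.76). RNA5-8SP2 had 8970 and 31816 counts, a log2 ratio of 0.80 (0.77 to 0.84). RNA5-8SP4 had only 607 and 1580 counts with a log2 ratio of 0.36 (0.22 to 0.49), and RNA5-8SP6 had 456 and 1193 counts with 0.36 (0.21 to 0.52). All 4 were higher in hypoxia on this scale. The intervals of the less abundant pair lay below those of the more abundant pair.

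Among the other abundant 5S pseudogenes, RNA5SP74 had 4574 counts in normoxia and 26081 in hypoxia (log2 ratio 1.49, interval 1.44 to 1.53). RNA5SP452 had 3199 and 16413 counts, a log2 ratio of 1.33 (1.28 to 1.39). Both lay above the class ratio. RNA5SP150, 4 edits from RNA5S1, had 3660 and 12211 counts with 0.71 (0.66 to 0.77), below the array genes, and RNA5SP19, which lies next to the array on the opposite strand and 17 edits from RNA5S1, had 3691 and 13188 counts with 0.81 (0.76 to 0.87), within their range of 0.77 to 0.81.

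**Figure D2:**
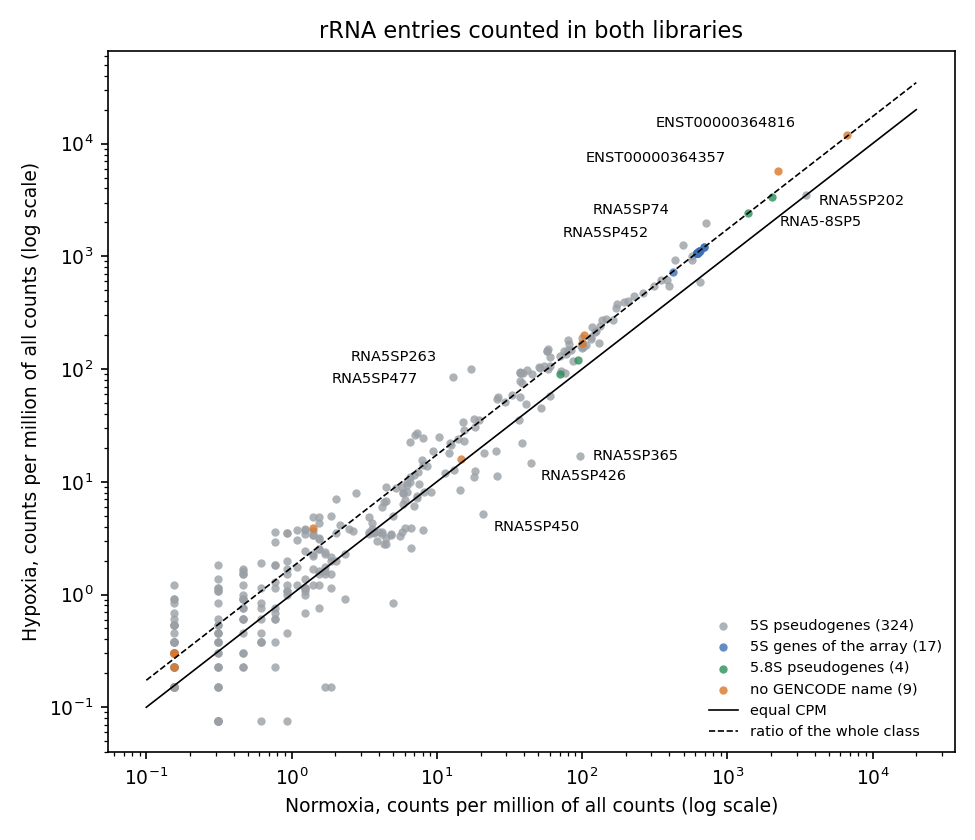
CPM of all counts in hypoxia (vertical, log scale) against normoxia (horizontal, log scale) for the 354 rRNA entries with a count in both libraries, 1 point each. The solid line marks equal CPM and the dashed line the 1.74-fold ratio of the whole class. The array genes lie along the dashed line. RNA5SP202 lies on the solid line, and RNA5SP365, RNA5SP426 and RNA5SP450 lie below it.

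The 17 genes of the array lie within chr1:228746015-228781905, at spacings of 2215 to 2242 bases (median 2241). Together they had 67916 counts in normoxia and 239273 in hypoxia, 1.05% and 1.82% of all counts, and took 27.9% of rRNA counts in both libraries. Their summed log2 ratio was 0.79 (0.78 to 0.81). The 5S pseudogenes summed to 93256 and 303839 counts and a log2 ratio of 0.68 (0.67 to 0.69). This was below the ratio of the array genes, with intervals that did not overlap. This order rested on RNA5SP202, since the other 347 had 70866 and 257691 counts and a log2 ratio of 0.84 (0.83 to 0.85), above the array genes.

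The 16 array genes with the same sequence ranged from 3963 to 4448 counts in normoxia (mean 4074 ± 157, SD, n = 16 copies) and from 13905 to 15896 in hypoxia (mean 14361 ± 652, SD, n = 16 copies). RNA5S9, with its 1 substitution, had 2735 and 9500 counts, below every identical copy in both libraries. The log2 ratios of the identical copies lay between 0.78 and 0.81, and that of RNA5S9 was 0.77.

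Over all 16 identical copies the SD of 157 counts in normoxia was larger than the square root of their mean, 63.8, which independent counting would give, and so was the SD of 652 in hypoxia, against 120. Over the 11 identical copies from RNA5S1 to RNA5S12, a stretch chosen after the values were seen, the SD was smaller, 21.1 counts in normoxia against 63.2 and 86.6 in hypoxia against 118. Along the chromosome, counts of the 16 identical copies never stepped down from a copy to the next (0 steps down in either library). The highest copy, RNA5S17, stood 12.2% above the lowest, RNA5S1, in normoxia and 14.3% above it in hypoxia. The sources used here do not say how reads that fit several copies were counted. Entries of identical or nearly identical sequence are therefore uncertain as separate measurements, and how far their counts come from the same reads was not tested.

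**Figure D3:**
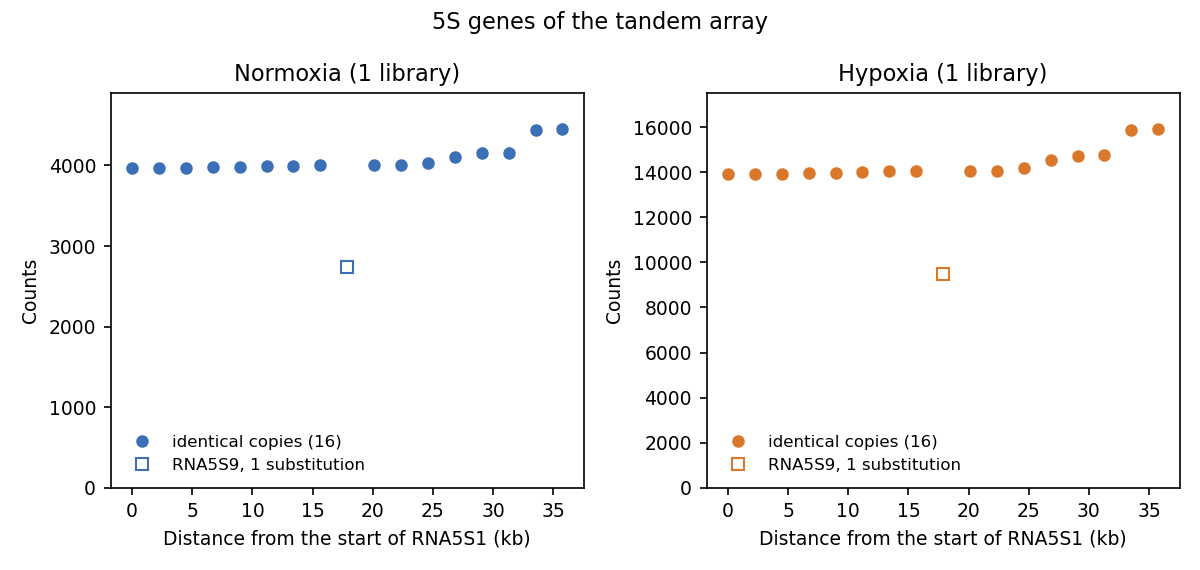
Counts (vertical axes, from 0) of the 17 array genes against distance from the start of RNA5S1 in kb (horizontal axis), in the normoxia library (left) and the hypoxia library (right). Filled points are the 16 identical copies and the open square is RNA5S9. Lines for the square root of each count are shorter than the symbols. The identical copies stay within 3963 to 4448 counts on the left and 13905 to 15896 on the right, and RNA5S9 lies below them at 2735 and 9500.

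The entries held 358 distinct sequences, and 28 entries shared theirs with another. With identical sequences summed, the 16 array genes became the most abundant sequence, with 26.8% of rRNA counts in both libraries. RNA5SP333 and RNA5SP334 also share a sequence and lie within exons of SAA2 and SAA1, on the same strand. They nevertheless had different counts, 47 and 357 for RNA5SP333 (log2 ratio 1.87) and 375 and 1962 for RNA5SP334 (1.36). RNA5SP521 and RNA5SP522, another pair with 1 sequence, had equal counts, 368 in normoxia and 1898 in hypoxia for each. The pair RNA5SP376 and RNA5SP377 had 136 and 119 counts in normoxia and 235 and 163 in hypoxia. Identical sequence thus came with equal counts in some cases and with different counts in others.

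Counted by size, 45 of the 136 entries with a mean log2 CPM above 3 had a log2 ratio of at least 0.9, 33.1% against 5.74% of all 1639 features past this filter. A log2 ratio of -0.9 or less was found for 4 entries, 2.94% against 3.29% of all features. Of the 1503 features of other classes, 49 were higher by the rule (3.26%) and 50 lower (3.33%). Of the rRNA entries past the filter, 119 of 136 had a log2 ratio above 0, with a median of 0.79, against 1012 of 1639 and a median of 0.13 over all features. The cutoff of 0.9 lies just above the class median, and 49 of the 136 entries lay between 0.7 and 0.9.

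By group, 43 of the 45 higher entries and all 4 lower entries were among the 110 5S pseudogenes past the filter, against 5.74% higher and 3.29% lower over all features. None of the 17 array genes passed the rule (0 of 17, log2 ratios from 0.77 to 0.81), nor any of the 5.8S pseudogenes (0 of 4, from 0.36 to 0.80), which at so few entries is near those shares. The other 2 higher entries, of 5 unnamed entries past the filter, were ENST00000364357 and ENST00000362568, which had 668 and 2631 counts. The 5S pseudogenes ranged from -2.49 to 2.71 around a median of 0.81.

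The widest ratios belonged to entries of low or middling counts. RNA5SP477, in an intron of KIZ on the opposite strand, had 83 counts in normoxia and 1123 in hypoxia (log2 ratio 2.71, interval 2.41 to 3.07). RNA5SP263, in an intron of NRG1 on the same strand, had 111 and 1304 counts with 2.52 (2.25 to 2.82). RNA5SP26, in an intron of TRPC4 on the same strand, had 46 and 344 counts with 1.85 (1.43 to 2.36). KIZ encodes a centrosomal protein, NRG1 a growth factor of the ERBB receptors and TRPC4 a cation channel. Levels of the host genes were not analysed here.

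The largest ratio in the other direction was that of RNA5SP365, which lies between genes and had 621 counts in normoxia and 223 in hypoxia (log2 ratio -2.49, interval -2.73 to -2.28). RNA5SP450, in an intron of VAPA on the same strand, had 135 and 68 counts with -1.97 (-2.46 to -1.58). RNA5SP426, in an intron of the long non-coding RNA gene AC025810.1, had 285 and 193 counts with -1.57 (-1.86 to -1.32). RNA5SP247, in an intron of SLC37A3 on the opposite strand, had 168 and 147 counts with -1.20 (-1.55 to -0.89). In each of these 4 the raw count was lower in the deeper library.

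Entries farther from the 5S gene tended to have fewer counts, though not in every step. Among the 374 entries nearest to 5S, the 16 at 0 edits took 32.4% of the counts of both libraries and the 4 at 1 to 5 edits took 32.5%. The 2 entries at 6 to 10 edits took 0.740%, the 13 at 11 to 15 took 8.59% and the 42 at 16 to 20 took 7.83%. The 146 entries at 21 to 30 edits took 12.7%, with a median of 66.5 counts, and the 117 entries at 31 to 40 edits took 2.48%, with a median of 19. The 34 entries at 41 to 81 edits took 2.72%, with a median of 18.5. Spearman's rho between counts and edits was -0.49 over the 374 entries. They share libraries and stretches of sequence, so this is a description across entries.

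The log2 ratio did not follow that distance. Median ratios past the filter were 0.79 at 0 edits, 0.74 at 1 to 5, 0.88 at 6 to 10, 0.74 at 11 to 15, 0.84 at 16 to 20, 0.79 at 21 to 30, 0.93 at 31 to 40 and 0.87 at 41 to 81. Spearman's rho over the 131 entries past the filter was 0.01 with edits and -0.02 with GC content.

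**Figure D4:**
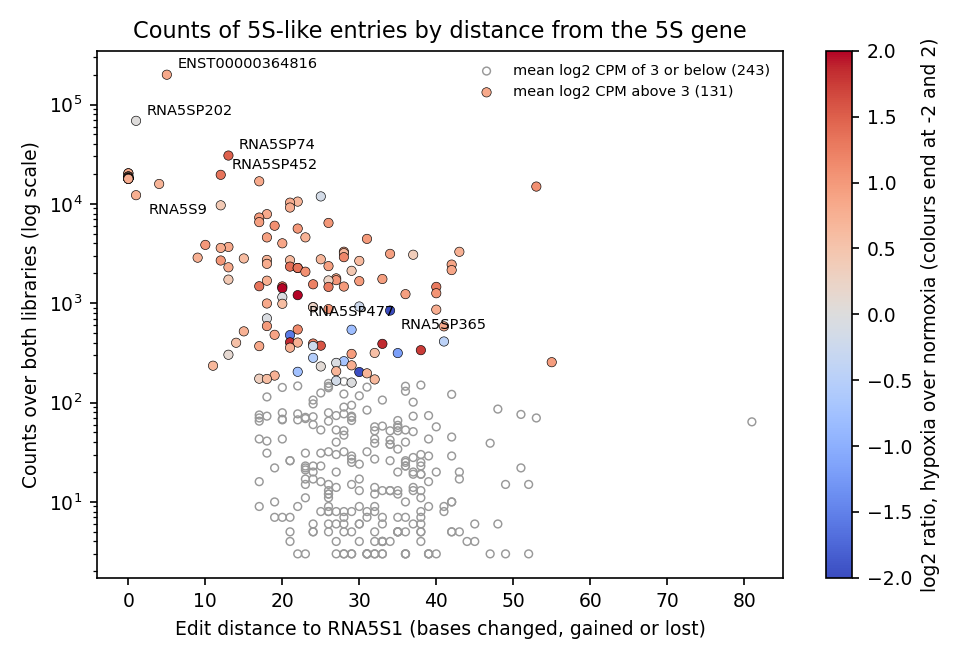
Counts over both libraries (vertical, log scale) against the edit distance to RNA5S1 (horizontal, bases changed, gained or lost) for the 374 entries nearest to 5S, 1 point each. Filled points are the 131 entries with a mean log2 CPM above 3, coloured by the log2 ratio of hypoxia over normoxia (red above 0, blue below), and open points are the 243 other entries. Entries with the most counts lie at few edits, and red points are found at short and at long distances.

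The copies also differed in how much of the 3′ end of 5S they kept. Each entry was searched for its best match to the last 40 bases of RNA5S1 (positions 80 to 119), with limits set after the values were seen. At most 8 edits were found in 127 entries, which held 194394 of the 205837 5S-like counts in normoxia (94.4%) and 669206 of the 704641 in hypoxia, and had a median of 1686 counts each. The end was not kept, with more than 14 edits, in 209 entries, which held 3.42% and 2.59% of these counts and had a median of 24. Entries that kept this end carried nearly all 5S-like counts. Among them are the 16 copies at 0 edits from RNA5S1 and the 4 at 1 to 5, with 32.4% and 32.5% of these counts. How far the end adds to overall likeness to RNA5S1 was not tested.

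Past the filter, the median log2 ratio was 0.80 over the 91 entries with the 3′ end, 0.94 over the 14 with 9 to 14 edits in it and 0.63 over the 26 without it, so it did not follow the order of the 3 sets. A ratio below 0 was found in 5 of the 91, 2 of the 14 and 10 of the 26, against 627 of the 1639 features past the filter (38.3%), so the set without the end lay at the share of all features. By the rule of size 28 of the 91 (30.8%), 8 of the 14 and 8 of the 26 (30.8%) were higher, against 5.74% of all features. Of the 4 lower entries, whose share of 2.94% was near the 3.29% of all features, RNA5SP365, RNA5SP450 and RNA5SP247 lacked the end, with 18 or 19 edits in it, and RNA5SP426 kept it, with 4. The sequence of RNA5SP365 shown above has its capitals crowded into these last bases.

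Substitutions among the 5S-like entries were mostly transitions at G and C. G-to-A changes made up 28.7% of all substitutions and C-to-T changes 23.8%. RNA5S1 holds 9 CG pairs, RNA5SP202 8 and ENST00000364816 4, and the 358 entries that differ from RNA5S1 had a median of 2. Entries with at least 1000 counts were no richer in CG pairs, with a median of 2 over 67 entries.

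By GENCODE context, 146 of the entries lay between genes, 205 in introns and 18 in exons. Of those in exons, 8 lay in a gene that GENCODE itself types as an rRNA pseudogene, on the same strand, which is a further annotation of the locus and no host gene. Of those in introns, 92 lay on the strand of the gene and 113 on the other. The 92 summed to 28547 counts in normoxia and 96819 in hypoxia, and the 113 to 41041 and 113433. RNA5SP202 alone gave 22390 and 46148 of the latter.

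Of the 14 classes, rRNA had the highest log2 ratio of shares. Small nuclear RNAs took 4.55% of all counts in normoxia and 6.15% in hypoxia (log2 ratio 0.43), and small nucleolar RNAs had a log2 ratio of 0.24. Y RNAs had 0.08, miscellaneous RNAs 0.05 and the miRNA class, mature and hairpin features together, -0.09. The lowest were piRNA at -0.19 and the tRNA features of the UCSC set at -0.20, which took 8.31% of all counts in normoxia and 7.25% in hypoxia. Per feature past the filter, the median log2 ratio was 0.79 for rRNA (quartiles 0.63 and 0.99), 0.27 for snRNA and 0.27 for snoRNA. By the rule of size 13 of 178 snRNA features (7.30%) and 13 of 289 snoRNA features (4.50%) were higher, against 5.74% of all features and 3.26% of those other than rRNA. None was lower in either class (0 of 178 and 0 of 289), against 3.33% of features other than rRNA. Since shares sum to the whole, a larger rRNA share and smaller shares of other classes cannot be told apart from counts alone.

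**Figure D5:**
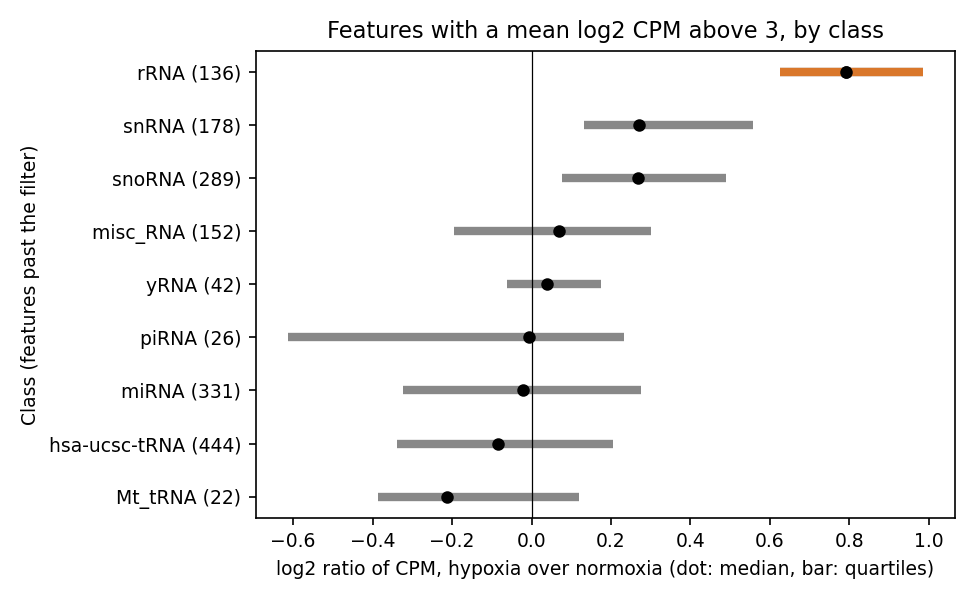
Log2 ratio of CPM, hypoxia over normoxia (horizontal axis), for features with a mean log2 CPM above 3 in each class, with the number of features in brackets. Dots are medians and bars run from the first to the third quartile of features, which are not replicates. The quartiles of rRNA, 0.63 and 0.99, lie above the upper quartiles of all 8 other classes shown.

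Features of other classes were searched for rRNA fragments under another name. Of the 1186 features of other classes with 17 to 60 bases, 0 had their sequence within an rRNA entry or within RNA5-8SN2, end bases aside. By position, 0 features of other classes overlapped an rRNA entry.

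RNAs that act in the cutting of rRNA precursors had, past the filter, lower ratios than the median rRNA entry. The list held the box C/D RNAs U3, U8, U13, U14 and U22, the box H/ACA RNAs SNORA73 (U17), SNORA62 and SNORA63, the RNase MRP RNA RMRP and its relative RPPH1, the RNA of RNase P, which cuts tRNA precursors. Of its 18 entries 13 passed the filter, 12 had a log2 ratio above 0 on the scale of all counts, and the median was 0.24 (range -0.10 to 0.52). With TMM over all features, DESeq2 size factors or the total without the 10 most abundant features, 10 of the 13 were above 0, since SNORA73A and SNORD14D changed sign. By the rule of size 0 of 13 were higher and 0 of 13 lower, near the 5.74% and 3.29% of all features. All features past the filter had a median of 0.13, snoRNA features of 0.27 and rRNA entries of 0.79. The list, mostly snoRNAs, thus lay near the snoRNA class.

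RMRP had 9629 counts in normoxia and 18295 in hypoxia (log2 ratio -0.10, interval -0.13 to -0.06), and RPPH1 had 14317 and 32594 counts with 0.16 (0.13 to 0.19). U22 (SNORD22), needed for 18S maturation, had 6728 and 17131 counts with 0.32 (0.28 to 0.37). U8 (SNORD118), needed for the maturation of 5.8S and 28S, had 4023 and 10184 counts with 0.32 (0.26 to 0.37). SNORA73A had 3843 and 8009 counts with 0.04 (-0.02 to 0.09). The highest ratio past the filter, 0.52 for SNORA62 on 222 and 650 counts, lay below the median of the rRNA entries. The U3 entries were below the filter, with 16 and 57 counts for SNORD3E (log2 ratio 0.76), 6 and 38 for SNORD3G (1.45) and 3 and 5 for SNORD3H (-0.19).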

How the data were processed

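Raw counts per small RNA feature were deposited by the authors in 1 table, with class, sequence and hg19 position, from 1 normoxia and 1 hypoxia library (6449337 and 13115226 counts). The aligner and the counting of reads that fit several copies are not given in the sources used here. rRNA entries were the rows typed rRNA. Names, gene types and context came from GENCODE version 29 by transcript ID, because the table gives no 5S or 5.8S names. Its GRCh38 coordinates were used only to find strand and surrounding gene.

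Shares were taken of all counts. Intervals are exact, at 95% (Clopper-Pearson for shares, conditional binomial for ratios of counts), with scipy version 1.17.1 in Python version 3.11.15. Log2 ratios of single features used CPM with a prior count of 2. The rule of size was a log2 ratio of at least 0.9 either way with a mean log2 CPM above 3. Edit distances were end to end. Named entries were the 10 with the most counts, the top of each name group and, among those with at least 100 counts, the 4 largest and 4 smallest log2 ratios. The largest and smallest are therefore extremes by choice. Other entries were named after their values were seen (array genes, other 5.8S pseudogenes, sequence twins and neighbours).

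Alternatives were TMM of edgeR version 4.0.16 (R version 4.3.3), DESeq2 (version 1.42.0) size factors, totals without rRNA or without the 10 most abundant features, other denominators, thinning of the deeper library, a prior count of 0.5, no filter, a mean CPM of at least 20, a threshold of 1 and 1 entry per sequence. Leaving out the largest entry or RNA5SP202 and placing unnamed entries by sequence were added after seeing the data. The calculation was tested on simulated data. Members and lists were chosen with earlier results of these data known. The sequences of the 5S array genes and of their closest copies are not reported here.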

Additional observations from a re-analysis of the deposited data

How the results depend on the processing

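The rRNA share in normoxia and hypoxia was 5.39% and 9.98% relative to mature miRNA counts, 3.92% and 7.01% relative to all counts without rRNA, 2.85% and 4.98% with 1 entry per sequence, and 3.12% and 5.42% without the largest entry. Another scale shifted every log2 ratio alike. TMM over all features shifted it by -0.11, which also brought the median of all features from 0.13 to 0.01. With TMM over mature miRNAs, TMM over all features, DESeq2 size factors, the total without rRNA and the total without the 10 most abundant features, the log2 ratio of the class was 0.78, 0.68, 0.69, 0.84 and 0.68. For 5S it was 0.71, 0.61, 0.63, 0.77 and 0.61, and for the unnamed entries 0.96, 0.87, 0.88, 1.02 and 0.87. For 5.8S it was 0.63, 0.64, 0.79 and 0.63 under the last 4 of these scales. With 1 entry per sequence it was 0.81 for the class and 0.70 for 5S. Without RNA5SP202 it was 0.82 for 5S. With unnamed entries placed by sequence it was 0.75 for 5S and 1.02 for 5.8S, and without the largest entry it was 1.34 for the unnamed entries. None of these ratios changed direction. With a filter, entries higher by size ranged from 30 of 136 (TMM over all features) to 49 of 138 (total without rRNA). With no filter 117 of 379 were higher. The number lower was 7 with the total without the 10 most abundant features, 14 with no filter and 2 with a mean CPM of at least 20. With identical sequences summed, the top 1, 5 and 10 took 26.8%, 65.0% and 75.3% of the class in normoxia and 26.8%, 64.3% and 75.9% in hypoxia. RNA5SP202 changed sign to -0.00072 (TMM over mature miRNAs), -0.095 (TMM over all features), -0.082 (DESeq2 size factors) and -0.095 (without the 10 most abundant features). None of the other 17 rRNA entries named by the rule did so.

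No paired analysis was possible because there was only 1 library in each condition, and for the same reason no fit without a library was run. The intervals leave out the difference between cultures and between library preparations, which cannot be told apart from the condition. Which stretch of an entry was read is not analysed here. The 91 entries with fewer than 10 counts give no usable ratio.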
